A study of Mus musculus with 9 samples.

Results

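The IL-6 family of cytokines was followed through 10 genes in sorted lung fibroblasts from aged mice, with and without bleomycin injury. The genes were chosen by symbol from the 43346 genes of the table as the ligands Il6, Il11, and Lif, the receptor genes Il6ra, Il11ra1, Il6st, Lifr, and Osmr, the kinase Jak1, and the transcription factor Stat3. Each symbol matched a single row, and all 10 genes passed the filter on low counts (an average of at least 25 counts over the libraries). Cells were GFP+, CD45-, CD31-, EpCAM- lung fibroblasts of Col1a1-GFP mice, on an FVB background according to the methods of the study, in which the collagen I promoter drives the green reporter. Each mouse received a single intratracheal dose of saline (aged sham, n = 4) or bleomycin (aged bleo, n = 5) and was studied after 30 days. The sample labels give the age as 72 weeks, and their treatment protocol gives 18 months. The groups are called sham mice and bleo mice where no single library is meant. The reporter marks only cells with an active collagen I promoter, so the gate depends on a collagen gene. Gene positions are on GRCm38 as the table gives them, and exons are those of GENCODE M21.

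Nearly all IL-6 family cytokines signal through receptors that share the subunit encoded by Il6st, with IL-31 as an exception. IL-6 and IL-11 each bind a private receptor chain first, and the complex then recruits pairs of the shared subunit, whereas LIF and oncostatin M bring the shared subunit together with LIFR or OSMR. Receptor-bound Janus kinases such as JAK1 then phosphorylate STAT3, which enters the nucleus and switches on genes that include its own inhibitor Socs3. In the lung, fibroblasts are a known source of IL-6, and IL-11 is known as a product of fibroblasts stimulated by TGF-β.

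After bleomycin, the 3 ligand genes moved in different directions. Il11 and Lif rose, Il6 fell, the private receptor genes Il6ra and Il11ra1 fell, and Il6st, Lifr, Osmr, Jak1, and Stat3 did not pass the thresholds. Genes were called by edgeR's quasi-likelihood test where the FDR, the Benjamini-Hochberg adjusted p-value over all 16877 genes tested, was under 0.10 and the level changed by more than 1.5-fold. Fitted log2 changes are those of aged bleo over aged sham ± 1 standard error (SE). Thus, 2 of the 10 genes were higher (20.0%) and 3 lower (30.0%) in bleo mice, where 12.3% of all genes tested were called higher and 11.5% lower. With so few genes, these shares are given as a description. The libraries held between 49921946 and 68260600 counts on genes, and 3 counts, the upper limit for a count of 0, equal 0.0409 to 0.0605 CPM (TMM-normalized counts scaled to a common library size). In these bulk libraries, fewer cells that express a gene and less RNA per cell cannot be told apart. Fibroblast identity genes (8 genes, collagens included) summed to 24805 to 30568 CPM in sham mice and 54998 to 72435 CPM in bleo mice. The collagen genes and Pdgfrb rose (4 of the 8 genes), Dcn, the gene of the matrix proteoglycan decorin, fell from 8122 ± 558 CPM (SD, n = 4) to 2795 ± 1249 CPM (SD, n = 5) (log2 change -1.54 ± 0.32 SE, FDR 0.00667), and Pdgfra, Lum, and Thy1 were not called (log2 changes -0.43, -0.18, and -0.38). Genes of other cell types were present at lower levels, and no marker gene was at 0 in every library. Summed smooth muscle and pericyte markers (6 genes, with Myh11 and Cnn1 called lower) were the most abundant of these, between 2544 and 5174 CPM over the sham mice and between 1765 and 2832 CPM over the bleo mice. The rest of this list was not called and split in direction. Acta2 and Rgs5 had log2 changes of -0.58 and -0.44, and Des and Cspg4 of 0.40 and 0.47. Acta2 had the highest mean of the list, 1812 CPM in sham mice and 1213 CPM in bleo mice. The study names it as a myofibroblast marker, so this sum does not measure other cells alone. Summed pan-leukocyte markers (7 genes) reached 104 to 394 CPM in sham mice and 112 to 614 CPM in bleo mice, highest in aged sham 4 and aged bleo 4. Summed macrophage markers (7 genes, 4 of them called higher) reached 136 to 257 CPM in the former and 441 to 1454 CPM in the latter, mostly from Lyz2. The part of any of these lists in the results below was not tested. The names of the libraries end in a number of unstated meaning, which the aged sham libraries share with aged bleo 4 and with no other aged bleo library. In aged bleo 4 as well, Il11 and Lif were above and Il6, Il6ra, and Il11ra1 below every aged sham library. This is a single library, and the part of the number in the names was not tested.

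The sequences before the start sites of the ligand genes are shown because these genes lie in the same family but moved apart. They are the 250 bases upstream of the RefSeq start site on GRCm38.p6, from C57BL/6J and not from the FVB mice of the study, written on the strand of the gene. Capitals mark matches to the AP-1 motif (TGANTCA) or to the NF-κB motif, searched on both strands. The window of Il6 is chr5:30012864-30013113 (plus strand), that of Il11 is chr7:4782858-4783107 (minus strand), and that of Lif is chr11:4257318-4257567 (plus strand).
Il6: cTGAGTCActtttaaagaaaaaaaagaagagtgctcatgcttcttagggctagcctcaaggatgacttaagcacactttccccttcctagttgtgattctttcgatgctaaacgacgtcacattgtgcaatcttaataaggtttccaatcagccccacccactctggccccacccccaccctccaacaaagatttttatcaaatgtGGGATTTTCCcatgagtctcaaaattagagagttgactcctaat
Il11: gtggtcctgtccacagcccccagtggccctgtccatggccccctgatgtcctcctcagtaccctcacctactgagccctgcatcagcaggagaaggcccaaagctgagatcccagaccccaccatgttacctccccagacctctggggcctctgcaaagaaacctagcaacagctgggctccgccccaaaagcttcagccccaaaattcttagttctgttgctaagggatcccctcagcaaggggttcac
Lif: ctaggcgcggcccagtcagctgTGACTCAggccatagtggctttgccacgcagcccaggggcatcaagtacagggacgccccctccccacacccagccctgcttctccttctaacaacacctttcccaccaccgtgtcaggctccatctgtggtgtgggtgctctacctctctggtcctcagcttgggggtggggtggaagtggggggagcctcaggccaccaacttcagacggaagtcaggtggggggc
The Il6 window held a match to AP-1 at bases 249 to 243 before the start site and a match to NF-κB at bases 44 to 35. The Lif window held an AP-1 match at bases 228 to 222, and the Il11 window held neither motif. Of all 32851 promoter windows of this length, 6.75% held the AP-1 motif, 3.90% the NF-κB motif, and 7.02% a STAT motif (TTCNNNGAA), which was in none of the 3 ligand windows. The cAMP response motif (TGACGTCA) was in none of them either and in 1.55% of all windows. A match describes these letters only, and its absence from 250 bases says nothing of a factor.

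Il11 (ENSMUSG00000004371, chromosome 7, 4773055 to 4782857, minus strand), the ligand known from TGF-β-treated fibroblasts, had the largest fitted change of the 10 genes. Its level was 1.32, 1.21, 1.34, and 0.827 CPM in aged sham 1 to 4. In aged bleo 1 to 5 it was 22.2, 10.3, 29.8, 39.8, and 33.1 CPM. All aged bleo libraries were thus above all aged sham libraries, with aged bleo 4 the highest and aged bleo 2 the lowest of the injured mice. From a sham mean of 1.18 ± 0.241 CPM (SD, n = 4), it rose to a bleo mean of 27.0 ± 11.3 CPM (SD, n = 5), which is 22.9-fold higher (log2 change 4.52 ± 0.40 SE, FDR 1.05e-04). Even the aged sham levels rested on 41 to 82 counts per library, above the limit that a count of 0 allows. Leaving out single libraries moved the log2 change between 4.33 (without aged bleo 4) and 4.72 (without aged bleo 2).

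Lif (ENSMUSG00000034394, chromosome 11, 4257557 to 4272514, plus strand) encodes leukemia inhibitory factor, which acts through LIFR and the shared subunit. It was at 54.8, 44.7, 41.3, and 38.2 CPM in aged sham 1 to 4. In aged bleo 1 to 5, it was at 165, 167, 315, 147, and 208 CPM, above every aged sham library. Here, aged bleo 3 was the highest, so that the order of the injured mice was not that of Il11. Its mean of 200.3 ± 67.7 CPM (SD, n = 5) after bleomycin compares with 44.7 ± 7.20 CPM (SD, n = 4) after saline, which is 4.48-fold higher (log2 change 2.16 ± 0.24 SE, FDR 2.86e-04).

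Il6 (ENSMUSG00000025746, chromosome 5, 30013161 to 30019968, plus strand) moved the other way. Its level was 365, 427, 366, and 279.7 CPM in aged sham 1 to 4, and 118, 178, 199, 52.7, and 96.1 CPM in aged bleo 1 to 5. Every aged bleo library was below every aged sham library, and the lowest level was in aged bleo 4, the library with the highest level of Il11. Relative to aged sham, Il6 fell by 1.48 ± 0.34 SE on the log2 scale (FDR 0.0101), and its level in sham mice was 2.79-fold that in bleo mice. Without aged bleo 4 it fell by 1.29, and without aged bleo 3 by 1.69. Immediate early genes such as Fos, Egr1, and Atf3, which are known to respond within minutes to stimuli including tissue digestion, moved with Il6. All 8 genes of that list were lower in every aged bleo library (log2 changes from -2.17 to -0.75). Their summed level was 17768, 20760, 19841, and 15642 CPM in aged sham 1 to 4, and 9906, 11963, 9770, 5261, and 6342 CPM in aged bleo 1 to 5. Both this sum and Il6 were lowest in aged sham 4 among the uninjured mice and in aged bleo 4 among the injured mice. Their part in the change of Il6 was not tested. Neutrophil markers (7 genes), which include no gene called in either direction, summed to 196 to 1102 CPM in sham mice and 97.9 to 954 CPM in bleo mice, and were highest in the same libraries in which Il6 was lowest within each group, aged sham 4 and aged bleo 4.

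**Figure D1:**
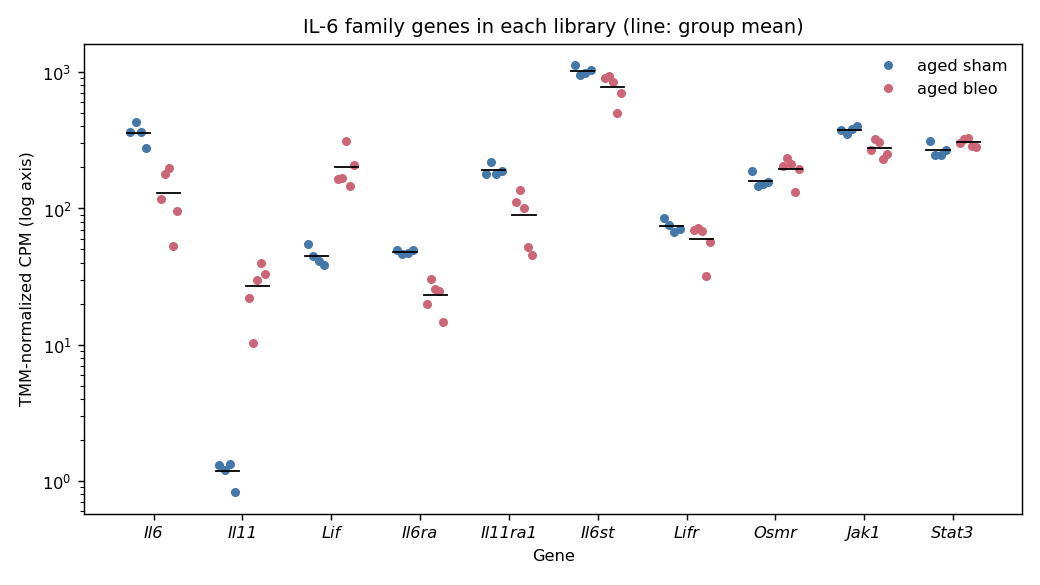
Levels of the 10 IL-6 family genes in each library, as TMM-normalized CPM on a log axis, with 1 point per mouse (aged sham, n = 4, and aged bleo, n = 5) and a line at each group mean. Il11 and Lif lie higher in all aged bleo libraries, and Il6, Il6ra, Il11ra1, Il6st, and Jak1 lie lower in all of them, whereas Lifr, Osmr, and Stat3 overlap.

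To compare levels between genes, the FPKM values of the authors were used, which take gene length into account. In aged sham, Il6 had the highest FPKM of the 10 genes, from 105 to 167 FPKM, and Il11 the lowest, from 0.255 to 0.428 FPKM. Between them, the FPKM of Lif was 3.60 to 5.27. The ratio of Il6 to Il11 in FPKM was 334 to 430.3 in the aged sham libraries. In aged bleo 1 to 5, it was 6.50, 21.1, 8.18, 1.62, and 3.55. The ratio of Il6 to Lif in FPKM went from 26.7 to 38.3 in sham mice to between 1.44 and 4.27 in bleo mice. Il6 was still the most abundant of the 3 ligands per length in each injured mouse, but in aged bleo 4 the 3 genes were within a narrow range, at 21.8, 15.2, and 13.4 FPKM for Il6, Lif, and Il11.

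**Figure D2:**
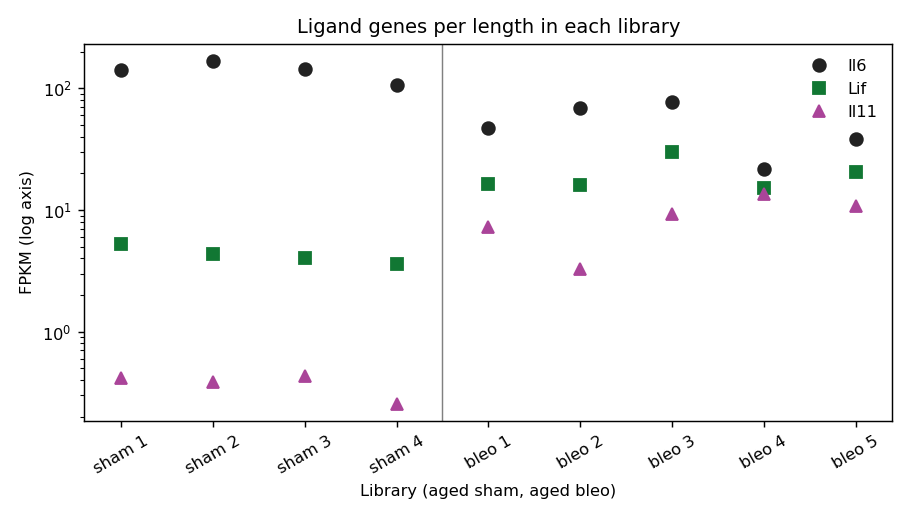
FPKM of the ligand genes Il6, Lif, and Il11 in each library, on a log axis, with aged sham 1 to 4 to the left of the line and aged bleo 1 to 5 to the right. The ratio of Il6 to Il11 lies between 334 and 430.3 in sham mice and between 1.62 and 21.1 in bleo mice.

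Both private receptor genes fell after bleomycin. Il6ra (ENSMUSG00000027947, chromosome 3, 89869324 to 89913162, minus strand) encodes the chain that binds IL-6. It was nearly constant in sham mice, at 49.9, 46.6, 47.0, and 49.6 CPM, and was at 19.8, 30.6, 25.7, 24.8, and 14.7 CPM in aged bleo 1 to 5. No library of either group reached into the range of the other. The mean was 48.3 ± 1.70 CPM (SD, n = 4) in sham mice and 23.1 ± 6.07 CPM (SD, n = 5) in bleo mice (log2 change -1.06 ± 0.18 SE, FDR 0.00273). Il6ra is also known from leukocytes, whose part in this change was not tested. The summed macrophage markers were higher in every bleo mouse than in any sham mouse, and the summed neutrophil markers were below every sham mouse in 4 of the 5 bleo mice. Most of the macrophage sum came from Lyz2. Of that list, only Lyz2 and Cd68 had ranges that did not overlap between the groups.

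Il11ra1 (ENSMUSG00000073889, chromosome 4, 41699989 to 41769474, plus strand) encodes the chain that binds IL-11. Its level was 179, 219, 179, and 187 CPM in aged sham 1 to 4, and 112, 136, 101, 52.3, and 45.5 CPM in aged bleo 1 to 5. The injured mice were all below the uninjured mice, and aged bleo 4 and aged bleo 5 were far below the other injured mice. The log2 change was -1.10 (standard error 0.30, FDR 0.0216). The gene has near-identical copies, as 46.3% of the 50-base stretches of its transcripts recur in those of Gm13305 or Il11ra2. These copies had 0 and 1 counts in all libraries together. Summing them with Il11ra1 could thus not move its log2 change of -1.10 and is no check of it. How the counting treated reads that match several copies is not given in the sources used here, so the level of Il11ra1 is uncertain in every library.

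Il6st (ENSMUSG00000021756, chromosome 13, 112464070 to 112510086, plus strand), the subunit that receptors for IL-6, IL-11, and LIF share, had the highest FPKM of the 5 receptor genes in every library. It was at 1121, 949, 981, and 1032 CPM in aged sham 1 to 4. In aged bleo 1 to 5, it was at 899, 939, 848, 499, and 704 CPM. Although these ranges did not overlap, the gene missed the thresholds on both the FDR and the fold change (log2 change -0.39 ± 0.18 SE, FDR 0.112). Aged bleo 1 and 2 were close to the lowest aged sham library. Without aged bleo 4, the log2 change was -0.28. In FPKM, the ratio of Il6st to Il6ra was 6.13 to 6.77 in sham mice and 9.25 to 14.4 in 4 of the 5 aged bleo libraries, with 6.06 in aged bleo 4.

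The receptor chains of LIF and oncostatin M showed no difference past the thresholds. Lifr (ENSMUSG00000054263, chromosome 15, 7129559 to 7197489, plus strand) was at 85.6, 75.7, 67.7, and 70.7 CPM in aged sham 1 to 4 and at 69.6, 72.1, 68.1, 32.1, and 56.5 CPM in aged bleo 1 to 5. Its ranges overlapped, and aged bleo 4 was far below the rest (log2 change -0.33 ± 0.21 SE, FDR 0.252). Osmr (ENSMUSG00000022146, chromosome 15, 6813577 to 6874969, minus strand) was at 187, 145, 152, and 156 CPM in aged sham 1 to 4 and at 203, 234, 213, 131, and 193 CPM in aged bleo 1 to 5. Of the injured mice, 4 were above every uninjured mouse, and aged bleo 4 was below every one of them (log2 change 0.28 ± 0.16 SE, FDR 0.190). The LIF ligand gene thus rose 4.48-fold in cells in which the fitted change of its receptor gene was small, and no test compared both changes.

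Of the signalling genes, Jak1 (ENSMUSG00000028530, chromosome 4, 101152367 to 101265282, minus strand) was lower in every aged bleo library. Its level was 373, 354, 382, and 404 CPM in aged sham 1 to 4, and 269.7, 323, 305, 229.7, and 249 CPM in aged bleo 1 to 5. Jak1 thus passed the threshold on the FDR but not that on the fold change (log2 change -0.46 ± 0.11 SE, FDR 0.0126). Stat3 (ENSMUSG00000004040, chromosome 11, 100885098 to 100939540, minus strand) was at 311, 247, 248, and 267 CPM in aged sham 1 to 4. It was at 302, 324, 326, 289, and 283 CPM in aged bleo 1 to 5, so that aged sham 1 lay within the range of the injured mice. The difference did not pass the thresholds (log2 change 0.18 ± 0.09 SE, FDR 0.154). These are transcript levels, and the phosphorylation through which STAT3 acts was not measured. Of the 10 genes, 7 had ranges that did not overlap between the groups, 2 with aged bleo above and 5 with aged bleo below, where 32.2% of all genes tested did not overlap (16.1% above and 16.1% below). On the FDR alone, 6 of the 10 genes passed, where 44.8% of all genes tested did.

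**Figure D3:**
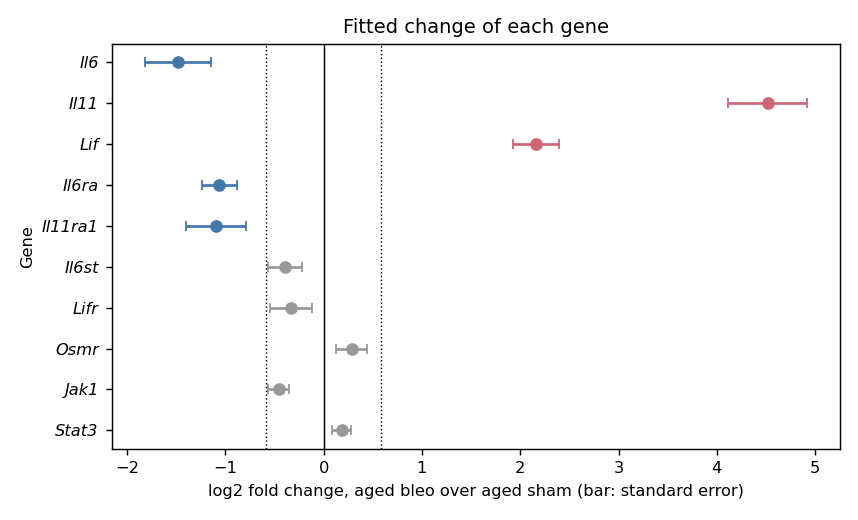
Fitted log2 change of aged bleo over aged sham for each of the 10 genes, with bars of 1 standard error and dotted lines at a fold change of 1.5 in either direction. Red marks genes called higher (Il11 and Lif), blue genes called lower (Il6, Il6ra, and Il11ra1), and grey genes that were not called.

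Per length, the order of the 10 genes in sham mice was Il6, Il6st, Jak1, Il11ra1, Stat3, Il6ra, Osmr, Lif, Lifr, and Il11, from 139 ± 25.4 FPKM (SD, n = 4) to 0.372 ± 0.0798 FPKM. Among neighbours in this order, the FPKM ranges of Jak1 and Il11ra1, of Il6ra and Osmr, and of Osmr and Lif overlapped, and the other neighbours were apart. In aged bleo, the order was Il6, Il6st, Lif, Jak1, Stat3, Il11, Il11ra1, Osmr, Il6ra, and Lifr, from 50.4 ± 22.3 FPKM (SD, n = 5) to 2.47 ± 0.642 FPKM. There, only Osmr and Il6ra were apart among neighbours, so most of this order is not resolved. The FPKM of Lif, at 19.7 ± 6.22 (SD, n = 5) in bleo mice, was above the FPKM of Stat3 in every injured mouse, whereas in sham mice it was below it in every mouse. Exons of Il6ra, Il11ra1, Jak1, and Stat3 overlap an exon of a gene on the other strand (Gm42809, Ccl27a, Raver2, and Stat5a). As the library kit does not mark strand, reads in these overlaps cannot be told apart.

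The rest of the family was examined with lists of related genes. Of 8 further ligand genes, 6 were tested, 2 were called higher, and 0 were called lower. The median log2 change over the list was 0.66, where that of all genes tested was 0.0064. The counts of this and the following lists stand beside 12.3% of all genes tested called higher and 11.5% called lower, and the 6 lists together held 45 tested genes, of which 10 were higher and 7 lower. Clcf1, the gene of a cardiotrophin-like cytokine, was at 8.03 to 11.0 CPM in sham mice and 11.2 to 13.6 CPM in bleo mice, under the fold change threshold (log2 change 0.49 ± 0.11 SE, FDR 0.0101). Ctf1, the gene of cardiotrophin, rose from 1.69 ± 0.441 CPM (SD, n = 4) to 2.99 ± 0.412 CPM (SD, n = 5) (log2 change 0.82, FDR 0.0164). Osm, the gene of oncostatin M, which is known as a product of myeloid cells, was not called (log2 change 0.98 ± 0.75 SE, FDR 0.338). It ranged from 6.23 to 28.1 CPM in sham mice and from 5.25 to 77.0 CPM in bleo mice, with the highest level of each group in aged sham 4 and aged bleo 4, which also had the most pan-leukocyte markers. Their part in this pattern was not tested. Il27 and Il31 were under the filter.

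Of 3 further receptor genes, 2 were tested, and Cntfr was lower. Cntfr encodes the chain that binds ciliary neurotrophic factor. It was at 18.5, 20.5, 16.2, and 16.7 CPM in aged sham 1 to 4 and at 6.34, 9.24, 7.38, 3.40, and 5.11 CPM in aged bleo 1 to 5, with all injured mice below all uninjured mice (log2 change -1.52 ± 0.25 SE, FDR 0.00233). Cntfr was thus called lower along with the private chains Il6ra and Il11ra1. Il27ra was at 4.53 to 8.48 CPM in sham mice and 5.84 to 9.18 CPM in bleo mice and was not called (log2 change 0.40 ± 0.20 SE, FDR 0.142). Il31ra was under the filter, at no more than 0.308 CPM in any library.

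Of 6 other kinase and STAT genes, 1 was higher, Jak2, at 72.1 ± 22.0 CPM (SD, n = 4) in sham mice and 112 ± 16.3 CPM (SD, n = 5) in bleo mice (log2 change 0.64 ± 0.19 SE, FDR 0.0275). Aged sham 1, at 105 CPM, was within the range of the injured mice, and the call was lost without aged sham 2, aged sham 4, or aged bleo 3 (log2 changes 0.54, 0.58, and 0.58). Stat6 was lower by less than the fold change threshold (log2 change -0.35 ± 0.09 SE, FDR 0.0169).

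Among 12 genes of brakes and adaptors of the pathway, of which Socs3 also stands in the list of STAT3 targets, 1 was higher and 2 were lower, and the median log2 change over the list was 0.031. These 3 of 12 genes are about the share called over all genes tested, 23.8%, and so are no result about the list. Socs3, the feedback inhibitor that binds the shared receptor subunit and that STAT3 itself induces, was at 1149, 1132, 1124, and 881 CPM in aged sham 1 to 4. In aged bleo 1 to 5, it was at 503, 696, 510.4, 249, and 319.9 CPM. All injured mice were below all uninjured mice, and as for Il6, the lowest levels were in aged sham 4 and aged bleo 4 (log2 change -1.23 ± 0.27 SE, FDR 0.00859). Socs1, an inhibitor of the Janus kinases, fell by 0.64 (FDR 0.0376), and it fell by 0.57 without aged sham 2 and by 0.50 without aged bleo 5, which are under the fold change threshold. Socs2, known as a brake on growth hormone signalling, rose from 31.9 ± 2.02 CPM (SD, n = 4) to 66.0 ± 6.75 CPM (SD, n = 5) (log2 change 1.05 ± 0.09 SE, FDR 6.81e-05). The adaptor genes Ptpn11 and Grb2 were not called (log2 changes 0.02 and 0.22, FDR 0.830 and 0.159).

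Of 4 genes linked to the release of soluble receptors, 2 were higher, where 12.3% of all genes tested were, and 4 genes are too few to set the list apart. Adam10, a membrane protease that can release the IL-6 receptor from the cell surface, was at 97.6 ± 9.24 CPM (SD, n = 4) in sham mice and 163 ± 24.2 CPM (SD, n = 5) in bleo mice, without overlap (log2 change 0.74 ± 0.12 SE, FDR 0.00230). Rhbdf2, which encodes a protein needed for the maturation of the related protease ADAM17, was at 20.3 to 25.7 CPM in sham mice and 41.7 to 61.8 CPM in bleo mice (log2 change 1.27 ± 0.13 SE, FDR 1.90e-04). Adam17 itself and Rhbdf1 were not called (log2 changes 0.12 and -0.18, FDR 0.314 and 0.345).

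The 16 genes listed as STAT3 targets split in both directions, with 4 higher and 5 lower in bleo mice and a median log2 change of 0.23. Thus, 9 of the 16 were called, where 23.8% of all genes tested were. Timp1, Saa3, Lcn2, and Hp were higher, and Socs3, Cebpd, Junb, Pim1, and Myc were lower. Saa3, the gene of an acute phase apolipoprotein, was at 3.81, 4.17, 2.12, and 5.12 CPM in aged sham 1 to 4 and at 40.7, 21.8, 85.7, 71.1, and 60.1 CPM in aged bleo 1 to 5, with all injured mice far above (log2 change 3.87 ± 0.44 SE, FDR 3.41e-04). Timp1, an inhibitor of metalloproteinases, was at 53.9 to 62.7 CPM in sham mice and 164 to 585 CPM in bleo mice (log2 change 2.75 ± 0.33 SE, FDR 5.19e-04). Lcn2 and Hp, acute phase genes that neutrophils also express, were highest in aged sham 4 and aged bleo 4 within their groups, as were neutrophil markers, and the part of neutrophil RNA in them was not tested. The level of Lcn2 in aged sham 4, 12.7 CPM, exceeded that in aged bleo 2, 10.3 CPM, so that its ranges overlapped. The call of Hp (log2 change 1.65, FDR 0.0658) was lost without aged sham 1, 2, or 3 or aged bleo 4 or 5, with log2 changes of 1.37 to 1.70.

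The lower genes of the STAT3 list also include transcription factors. Myc, a driver of growth, was at 209, 159.7, 159, and 165 CPM in aged sham 1 to 4 and at 55.1, 87.7, 73.4, 28.2, and 45.5 CPM in aged bleo 1 to 5, with all injured mice lower (log2 change -1.58 ± 0.28 SE, FDR 0.00360). Cebpd, a transcription factor of the acute phase, was at 370.5 ± 50.2 CPM (SD, n = 4) in sham mice and 144 ± 52.5 CPM (SD, n = 5) in bleo mice (log2 change -1.36 ± 0.27 SE, FDR 0.00520). Junb fell by 0.83 (FDR 0.0209), and Pim1, a kinase that favours cell survival, by 0.65 (FDR 0.0245). Without aged sham 4 the call of Pim1 was lost at a log2 change of -0.57, and without aged bleo 5 at -0.52. Myc, Junb, and Socs3 are themselves known as genes that respond early to stimuli, and the 8 immediate early genes were lower in every aged bleo library. The part of such a response in the lower genes of this list, Cebpd and Pim1 included, was not tested. Of the genes that were not called, Serpina3n was at 575 to 712 CPM in sham mice and 686 to 1411 CPM in bleo mice (log2 change 0.57, FDR 0.0427). Mcl1, a survival gene, was lower in every aged bleo library by just under the fold change threshold (log2 change -0.58, FDR 0.00522).

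**Figure D4:**
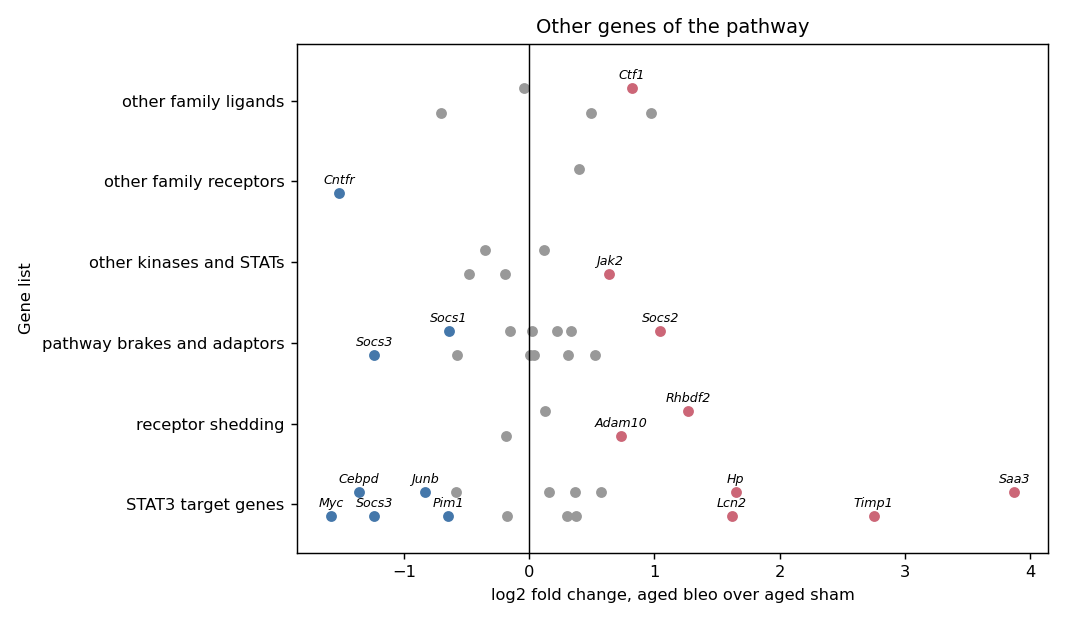
Log2 change of aged bleo over aged sham for the tested genes of each pathway list except 2 that are not reported here, 1 point per gene, with red points for genes called higher, blue for genes called lower, and grey for genes not called. Called genes are named, and of the 16 listed STAT3 targets 9 lie to the right of 0 (4 of them called) and 7 to the left (5 of them called).

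The genes whose log2 CPM followed each ligand most closely over the 9 libraries were found among 15269 genes with a mean of at least 1 CPM. For Il11, they were Lepre1, Plod1, and Pard6g (Pearson's r = 0.996, 0.996, and 0.996). Lepre1 and Plod1 encode enzymes that hydroxylate proline and lysine in collagen. For Lif, they were Hivep3, Hnrnpul2, and Cnn3 (r = 0.993, 0.991, and 0.989), and for Il6, Trim21, Garnl3, and Spty2d1 (r = 0.991, 0.991, and 0.986). For Stat3, they were 1700008J07Rik, Stra6, and Sema6d (r = 0.962, 0.952, and 0.941). The libraries fall into the 2 treatment groups, which by itself raises r. With the mean of each group taken out, r was 0.924 to 0.945 for the genes nearest to Il11, 0.953 to 0.986 for those nearest to Il6, 0.874 to 0.938 for those of Lif, and 0.916 to 0.934 for those of Stat3. These values are the highest of many and are given as a description.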

How the data were processed

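RNA-Seq libraries of 4 aged sham and 5 aged bleo mice, grouped by their sample titles, were analysed. The authors deposited read counts per gene, which are whole numbers without normalization, for 43346 genes. FPKM values from the authors stand beside them, and the total behind these values exceeds the summed counts of the same library by a factor of 2.27 to 2.42. Per the submitters' processing notes, STAR 2.5.2b, Subread, and featureCounts were used with mm10 and GRCm38. Whether the counting used strand is not given in the sources used here. Of the gene identifiers shared with GENCODE M21, 78.8% have the same positions there. Promoter windows were taken from RefSeq on GRCm38.p6 and matched all 10 genes by symbol.

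The test was run on genes that averaged 25 counts or more, with edgeR 4.0.16 (TMM normalization, glmQLFit and glmQLFTest) in R 4.3.3, with the filter and thresholds of the study but a count test in place of its moderated test. The SE of a log2 change was derived from its F statistic. Levels are in CPM with TMM factors applied, and a prior count of 2 was added on the log2 scale. Limits from counts cover counting error only, and the p-values set the difference between the groups against the spread between mice of a group. Chi-square per degree of freedom between libraries of a group was 31.0 to 469, far above sampling noise, so none was a duplicate. The genes, lists, and tests were chosen with earlier results of these data known. Named genes are the 10 family genes, the genes past the thresholds in 6 pathway lists with the 2 most abundant others of each list, and the 3 genes most like Il6, Il11, Lif, or Stat3. Il27 and Il31 appear only as part of their list, and marker genes as part of theirs, some of them with their own values. Of the genes this rule names, 2 are not reported here and enter the counts and medians of their lists only. Alternatives were DESeq2 1.42.0, limma 3.58.1 on log2 CPM and on log2(FPKM + 0.1) and log2(FPKM + 1), other normalizations, filters, and thresholds, a robust fit, libraries left out, and replicate numbers as a block.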

Additional observations from a re-analysis of the deposited data

Results flagged for a closer look

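Values were looked at again where the highest or lowest library of a group stood apart from the others by Dixon's test, which chance passes in about 1 of 20 groups. Of 74 sets of values, 10 did so, and no cause was tested. None of the 10 family genes was among them. In aged sham, Jak2 was at 105 CPM and Myc at 209 CPM in aged sham 1, Socs3 was at 881 CPM and Cebpd at 445 CPM in aged sham 4, summed T and NK cell markers were at 10.8 CPM in aged sham 4, and summed epithelial markers were at 94.1 CPM in aged sham 3. The other aged sham libraries had 56.6 to 64.0 CPM of Jak2, 159 to 165 CPM of Myc, 1124 to 1149 CPM of Socs3, and 338 to 351 CPM of Cebpd. In aged bleo, Socs2 was at 77.6 CPM in aged bleo 5. Aged bleo 4 stood apart in its pan-leukocyte (614 CPM), neutrophil (954 CPM), and T and NK cell markers (23.7 CPM). Without aged sham 4 and aged bleo 4, the same numbers of family genes, 2 higher and 3 lower, passed the thresholds.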

How the results depend on the processing

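All 22 alternatives gave 2 family genes higher and 3 lower in aged bleo, and none changed the direction or call of any of the 10 genes. The count on the FDR alone does depend on the fit and the libraries. Across the alternatives, the FDR ran from 0.0590 to 0.222 for Il6st, from 0.0189 to 0.350 for Osmr, and from 0.0529 to 0.328 for Stat3. The fold changes of these genes stayed under the threshold. Across all alternatives, the log2 change of Il11 ranged from 2.73 on log2(FPKM + 1) to 4.72, and that of Lif from 1.93 to 2.27. That of Il6 ranged from -1.69 to -1.29, that of Il6ra from -1.18 to -0.85, and that of Il11ra1 from -1.30 to -0.93. The low value of Il11 follows from the pseudocount, which exceeds its level in aged sham. Over all genes, 4022 were called, against 1785 on log2(FPKM + 1) and 2158 at thresholds of 0.05 on the FDR and 2-fold on the change. With these stricter thresholds, 6 pathway genes were higher and 4 lower, in place of 10 and 7. With each library left out in turn, 3525 to 4597 genes were called, 8 to 12 pathway genes were higher, and 5 to 9 were lower. The alternative that sums Il11ra1 with its copies was chosen after seeing the data. It could not differ from the main fit, as the copies held almost no counts. Replicate numbers do not pair the mice by any label, and deviations of same-numbered libraries correlated at 0.0922, 0.0623, -0.130, and 0.326. The fit with the replicate number as a block left out aged bleo 5, whose number no aged sham library has. It called 3541 genes, with 2 family genes higher and 3 lower, and 10 pathway genes higher and 6 lower. Socs1 and Pim1 fell under the threshold on the fold change there (log2 changes -0.51 and -0.52). Without aged bleo 5 and with no block, they did so as well (-0.50 and -0.52), so the block is not set apart from the missing library. Of the 4 aged sham libraries, only aged sham 4 correlated best with its own number. Depth did not limit the 10 genes, the least abundant of which had at least 41 counts in every library.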
